A study of Mus musculus with 2 samples.

Results

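Class II dendritic cells were taken as the cell barcodes of 2 mouse bone marrow libraries that were rich in major histocompatibility complex (MHC) class II transcripts and poor in B-cell and plasma-cell transcripts. A barcode was kept if it had at least 1000 genes and under 10% of its unique molecular identifiers (UMIs, each of which stands for a captured mRNA molecule) from mitochondrial genes. A kept barcode was a member if Cd74, H2-Aa, H2-Ab1 and H2-Eb1 together made up at least 0.2% of its UMIs, if it had at most 2 Cd79a UMIs, and if Igkc and Jchain together made up under 1% of its UMIs. Of 14083 kept barcodes, among 25928 in all, 331 were members. They were 145 of 6080 kept barcodes in the knockout library and 186 of 8003 in the control library. The members were thus selected on measured values, the transcripts of these genes in each cell, so the genes of the rule, and the members set against other barcodes, are given as description only.

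The knockout library came from Trsp f/f:Mx1-Cre mice and the control library from Trsp f/f mice, both C57BL/6. In both, the Lineage- cKit+ fraction was taken from the marrow of femora and tibiae, then frozen and thawed before loading. Mice of both genotypes had received 3 doses of 500 µg of pI-pC, a synthetic double-stranded RNA, on alternate days, at 7 weeks after birth as the series text puts it, and marrow was taken 9 weeks after the last dose. Trsp is the gene of the selenocysteine tRNA, and Mx1-Cre is a recombinase under an interferon-inducible promoter that is active in blood cells and in other tissues. The controls carried the floxed Trsp alleles but no Cre. There was 1 library per genotype, and how many mice each came from is not stated by the labels. No replicate stands behind any difference between genotypes, so none is tested, and every interval below is a 95% interval that covers counting error only.

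Dendritic cells take up antigen and show its peptides to T cells on MHC class II molecules. The class II genes are switched on together by the coactivator CIITA, which is recruited to a promoter module that ends in the Y box, a reversed CCAAT box bound by NF-Y. In bone marrow, conventional dendritic cells arise from Flt3+ Irf8+ progenitors and divide into the cDC1 lineage, which needs Irf8, Batf3 and Id2, and the cDC2 lineage, which relies on Irf4, Klf4 and Notch2. Selenoproteins contain selenocysteine, which is inserted with the Trsp tRNA. Many of them, such as the glutathione peroxidases, reduce peroxides, and cells under oxidative stress use the transcription factor NRF2 to raise other antioxidant genes.

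The promoters of 4 class II pathway genes are shown because the genes define these cells or work beside the genes that do. H2-Aa and H2-Eb1 encode chains of the antigen-presenting molecules, H2-DMb1 encodes a chain of the peptide editor H2-M, and H2-Oa encodes a chain of its inhibitor H2-O. Each stretch runs 5′ to 3′ from base -110 to base -11 before the annotated RefSeq transcript start in build GRCm38.p6. Capitals mark the Y box letters TGATTGG, searched on both strands (CCAATCA on the other). The stretches lie at chr17:34287834-34287933 on the minus strand for H2-Aa and, on the plus strand, at chr17:34305757-34305856 for H2-Eb1, chr17:34153081-34153180 for H2-DMb1 and chr17:34092269-34092368 for H2-Oa.
H2-Aa: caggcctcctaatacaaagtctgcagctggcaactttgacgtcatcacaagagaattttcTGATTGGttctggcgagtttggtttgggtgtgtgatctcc
H2-Eb1: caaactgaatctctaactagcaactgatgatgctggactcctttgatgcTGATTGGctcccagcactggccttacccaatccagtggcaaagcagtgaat
H2-DMb1: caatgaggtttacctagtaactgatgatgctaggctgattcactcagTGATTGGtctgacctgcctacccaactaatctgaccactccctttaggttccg
H2-Oa: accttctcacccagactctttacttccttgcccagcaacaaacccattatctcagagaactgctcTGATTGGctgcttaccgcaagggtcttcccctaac
The first base of the motif lay at -50 in H2-Aa, -61 in H2-Eb1, -63 in H2-DMb1 and -45 in H2-Oa. Of 32851 promoter windows of the same table, which run from 250 bases before to 50 after a start, 1560 (4.75%) held the motif on either strand. The windows of H2-DMb2 and H2-Ob held it too, and the 2 windows of H2-DMa did not hold these letters. A match is a description of the sequence and not evidence of binding.

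The libraries held 152092210 UMIs in the knockout file and 184683653 in the control file. Members held 2201480 knockout and 2487620 control UMIs, with a median per cell of 14449 UMIs and 3477 genes in knockout members and 11401.5 UMIs and 2996 genes in control members. The other kept barcodes were deeper, at a median of 22741 UMIs in the knockout library and 20809 in the control library. The median mitochondrial share was 3.22% in knockout members and 2.53% in control members. Between the libraries 39 barcode sequences were shared, 11 of them kept in both, and 0 were members in both. Another 23 knockout and 44 control kept barcodes reached the class II share but failed the Cd79a or immunoglobulin limits.

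The boundary of the rule did not fall in an empty range. The members just inside it, with a class II share from 0.2% to below 0.25%, numbered 6 in the knockout library and 4 in the control library. The barcodes just outside, from 0.15% to below 0.2%, that met the other limits numbered 11 in the knockout library and 9 in the control library. Cst3, which encodes the protease inhibitor cystatin C and is abundant in dendritic cells, stood just inside at 4121 CPM (a gene's UMIs per 1000000 summed UMIs of the cells) in the knockout library and 8615 CPM in the control library. Just outside it stood at 1268 CPM in the knockout library and 7587 CPM in the control library. Mpo, the myeloperoxidase gene of neutrophil progenitors, was at 1077 CPM just inside and 361 CPM just outside in the knockout library, and at 2501 and 2145 CPM in the control library.

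Outside the genes of the rule, the members carried the transcripts of the dendritic lineage. Naaa (chromosome 5, 92257659 to 92278170, a lysosomal acid amidase), the remaining marker given for these cells, was at 468 CPM in knockout members and 331 CPM in control members. In the other kept barcodes it was at 3.85 CPM in the knockout library and 4.0 CPM in the control library. It had at least 1 UMI in 122 knockout and 141 control members. Of the 6295 genes measured in this comparison, 15.8% were at least 1.5-fold higher in members in both libraries and 16.5% at least 1.5-fold lower. Of 15 measured genes shared by dendritic cells, 13 were higher in both libraries, and so were all 13 measured cDC1 genes, 4 of 9 measured cDC2 genes and 3 of 10 measured plasmacytoid dendritic cell (pDC) genes. Lower in both libraries were 2 of those 9 cDC2 genes and 3 of those 10 pDC genes.

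The 30 genes that most set members apart in both libraries were headed by Plbd1, at 536 CPM in knockout members against 0.53 CPM in the other knockout barcodes, and at 596 CPM in control members. Ifi205, Ciita, Batf3, Ckb, Shtn1, Naaa and Id2 followed. Ciita itself, which is no part of the rule, was at 204 CPM in knockout members and 162 CPM in control members, against 0.61 and 0.45 CPM in the other barcodes of those libraries. Further down were the class II pathway genes H2-DMb1 and Ifi30, the chemokine receptor gene Ccr2 at 564 CPM in knockout members and 554 CPM in control members, the integrin gene Itgb7, Irf5, the small calcium-binding protein genes S100a4 and S100a6, Lgals3, Lsp1, Aif1, Rnase6, Rab7b and Cst3. The same list held Jaml, Tnni2, Ahnak, St3gal5, Camk1d, Samd9l, Ppfia4, Ptms and Myadm.

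The cDC1 genes were plain in both libraries. Irf8 was at 1852 CPM in knockout members and 1665 CPM in control members, and Batf3 at 162 and 208 CPM in the same order. Xcr1, the receptor for the chemokine XCL1, was at 60.0 CPM in knockout members and 53.1 CPM in control members but rested on 30 knockout and 26 control cells. Clec9a, a receptor for dead cells, was at 100.4 and 81.2 CPM, and Tlr3, a sensor of double-stranded RNA, at 62.2 and 72.0 CPM. The cDC2 picture was mixed. Klf4 was at 362 CPM in knockout members and 354 CPM in control members and Cd209a at 56.8 and 26.1 CPM, while Irf4 stood at 6.36 and 4.42 CPM and Sirpa at 10.4 and 10.5 CPM, below the 44.3 and 33.6 CPM of the other barcodes.

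**Figure D1:**
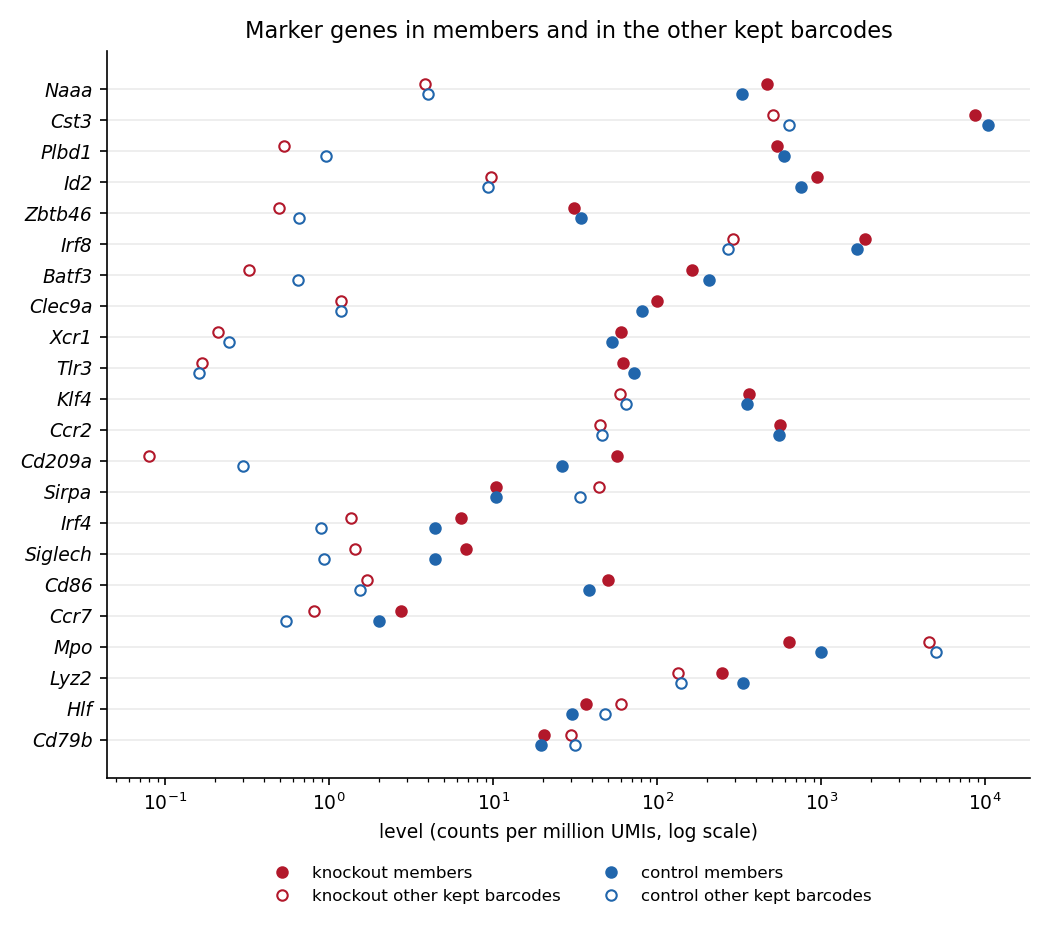
Level of marker genes, in CPM on a log axis, with filled points for members and open points for the other kept barcodes (red, knockout; blue, control). Dendritic and cDC1 genes from Naaa to Tlr3 lie far to the right in members of both libraries (Naaa 468 and 331 CPM in knockout and control members), and Mpo lies to the left in members (640 and 1001 CPM against 4553 and 5018 CPM).

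Several defining genes of mature or other cells were near or at 0. Siglech, a defining pDC gene, was at 6.81 CPM in knockout members and 4.42 CPM in control members, and Ccr7, the receptor of migrating mature dendritic cells, at 2.73 and 2.01 CPM. Ccl22 and Il12b, made by mature dendritic cells, had 0 UMIs in both. Other maturation genes were above the other kept barcodes. The maturation list summed to 185 CPM in knockout members and 165 CPM in control members, against 46.7 and 40.9 CPM in the other kept barcodes. All 3 of its genes measured in this comparison were at least 1.5-fold higher in members in both libraries. Cd86 was at 50.4 and 38.6 CPM, against 1.69 and 1.55 CPM elsewhere, and Ccr7 at 0.81 and 0.54 CPM elsewhere. The macrophage genes C1qa, C1qb, C1qc and Fcgr1, the B-cell gene Pax5 and the T-cell genes Cd3e and Cd3g had 0 UMIs in members of both libraries. Kit, the gene of the receptor used to collect the cells, was at 103 CPM in knockout members and 92.9 CPM in control members, close to the 114 and 98.7 CPM of the other barcodes.

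Monocyte genes were present. The monocyte and macrophage list summed to 1648 CPM in knockout members and 1749 CPM in control members, against 1223 and 1404 CPM in the other kept barcodes, with 5 of 8 measured genes at least 1.5-fold higher in both libraries and 3 lower. Lyz2, the lysozyme gene of myeloid cells, was at 247 CPM in knockout members and 332 CPM in control members, and Ms4a6c at 362 and 400.0 CPM, against 133 and 141 CPM and 149 and 168 CPM elsewhere. Their part in the results was not tested. Neutrophil progenitor transcripts were also present, at lower levels than elsewhere. The 13 genes of that list summed to 1942 CPM in knockout members and 3197 CPM in control members, against 13542 and 17367 CPM in the other kept barcodes. Mpo had at least 1 UMI in 129 knockout and 165 control members, so that a share of cells with a UMI of such a gene cannot be read as expression. How much of this was RNA free in the suspension was not tested.

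When the members of both libraries were clustered together, 5 subclusters formed. Subcluster 4 held 14 knockout and 15 control cells and is called cDC1-like, since Cadm1, Xcr1 and Tlr11 were among its 10 leading genes. It was also led by Cxcl9, Cd207 and Dnase1l3. Xcr1 reached 444 CPM in its knockout cells and 581 CPM in its control cells, Naaa 1463 and 1361 CPM, and its class II share was the highest of the 5, at a median of 3.82% of UMIs in knockout cells and 4.23% in control cells. Cells outside it thus held few Xcr1 transcripts, 42.2 CPM in knockout and 15.1 CPM in control cells of subcluster 0, while Batf3 stood there at 182 and 267 CPM, close to the 203 and 277 CPM of subcluster 4.

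Subcluster 0, with 42 knockout and 73 control cells, was led by Rab30, Ifitm6 and Slfn5 and stays unnamed. Subcluster 1, with 51 knockout and 36 control cells, was led by the division genes Prc1, Nusap1 and Kif11, and subcluster 3, with 16 knockout and 21 control cells, by the replication genes Dscc1, Ccne1 and Lig1. Mki67, a gene of dividing cells, was at 1043 CPM in knockout and 1310 CPM in control cells of subcluster 1, against 82.2 and 51.4 CPM in subcluster 0. The median class II share was 2.37% in knockout and 1.93% in control cells of subcluster 0, 1.11% and 1.18% in subcluster 1, and 0.853% and 0.735% in subcluster 3.

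Subcluster 2 went against the label. Its leading genes were Ifitm1, Elane, S100a8, Prtn3, Hlf and Ctsg, of neutrophil and stem or multipotent progenitors, and Mpo was at 2696 CPM in its knockout cells and 2683 CPM in its control cells. Dendritic genes were still present, with Irf8 at 1018 and 879 CPM and Naaa at 182 and 101 CPM. It held 22 knockout cells, 15.2% (9.76 to 22.1) of members, and 41 control cells, 22.0% (16.3 to 28.7), but 18.9% and 32.7% of the members' UMIs. All 9 knockout and all 23 control members with a Scrublet doublet score of at least 0.3 were in this subcluster. Whether its cells are doublets or early cells with class II transcripts was not tested. Because it weighed more in the control library, values without it are given beside each result that rests on it. Subcluster 1 weighed more in the knockout library, at 35.2% (27.4 to 43.5) of knockout and 19.4% (13.9 to 25.8) of control members. Its 907815 knockout and 537452 control UMIs stay in all ratios over members, also in those without subcluster 2. What part this shift in cell mix had in those ratios was not tested.

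**Figure D2:**
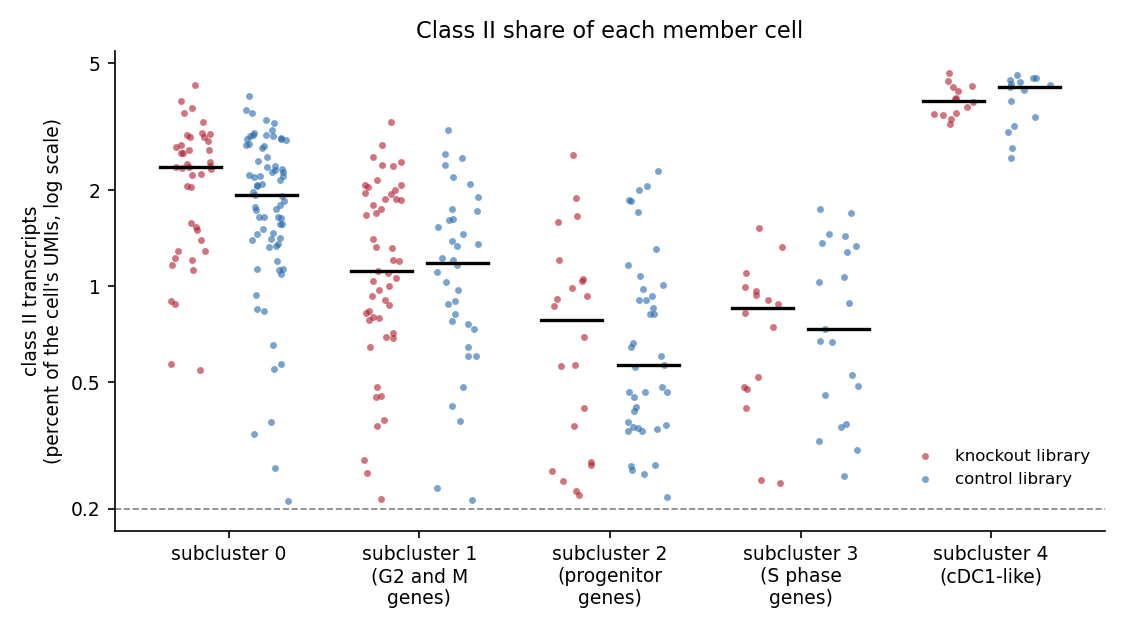
Class II transcripts (Cd74, H2-Aa, H2-Ab1 and H2-Eb1) as a percentage of the UMIs of each member cell, on a log axis, by subcluster, with red points for knockout cells, blue points for control cells, black bars at the medians and the 0.2% limit dashed. Subcluster 4 stands highest (medians 3.82% and 4.23%), with no cell under 2.52%, while cells of the other 4 subclusters reach down near the limit.

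At the limit of 10% mitochondrial UMIs, members were equally frequent in both genotypes within counting error. They were 2.38% (2.02 to 2.80, exact binomial interval) of kept knockout barcodes and 2.32% (2.01 to 2.68) of kept control barcodes. The log2 ratio of the shares, knockout over control, was 0.04 (-0.27 to 0.35, approximate interval). It was 0.42, given without an interval, when barcodes with 5% or more mitochondrial UMIs were left out. Members were then 134 of 4008 kept knockout barcodes (3.34%) and 170 of 6825 kept control barcodes (2.49%). Kept barcodes had been 6080 and 8003, and members 145 and 186, at the limit of 10%. The equal frequency thus depended on this limit. The main filter removed few cells like members, since 19 of 5476 rejected knockout barcodes (0.347%) and 20 of 6369 rejected control barcodes (0.314%) met the rest of the rule.

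For the comparison of genotypes a gene counted as measured with 20 CPM or more in either library and 50 UMIs or more in the 2 together, which held for 6133 genes. Of these, 5.41% were at least 1.5-fold higher in knockout members and 3.39% at least 1.5-fold lower, 8.36% were past 1.5-fold with an interval that left out a ratio of 1, and the median log2 ratio was 0.03. Without subcluster 2 the shares were 9.22% and 3.01% of 6019 genes, and every count below without subcluster 2 is to be read against these. Of the 332 genes higher in knockout members, 267 were also at least 1.5-fold higher without subcluster 2, and of the 208 lower, 110 were also lower. In the other kept barcodes, which hold far more UMIs, the shares were 1% and 0.625% of 6084 genes.

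Class II pathway genes that the rule did not use differed little in either direction. Of the 10 measured, 0 were at least 1.5-fold higher in knockout members and 0 lower, with a median log2 ratio of 0.11. With 5.41% and 3.39% of all genes past those limits, such a count does not set the list apart. Without subcluster 2 the median was -0.01 and 1 gene was lower, H2-DMb2 at -0.66. The 4 genes of the rule are given as description. H2-Aa, an alpha chain (chromosome 17, 34282744 to 34287823), was at 3417 CPM (3340.5 to 3495) in knockout members and 3181 CPM (3111 to 3251) in control members, and Cd74, the invariant chain, at 7351 and 6758 CPM.

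Among the genes outside the rule, Ciita had a log2 ratio of 0.33 (0.13 to 0.53), H2-Ob 0.36, H2-DMa 0.15, Ifi30, a thiol reductase of the class II compartment, 0.17, and March1, a ligase that removes class II from the surface, 0.15. H2-Oa and H2-DMb1 lay at 0.08 and 0.02, and H2-Ab1 and H2-Eb1, of the rule, at 0.08 and 0.11. On the lower side were Ctss, the protease that trims the invariant chain, at -0.17, the class II promoter factor Rfxap at -0.39, and H2-DMb2 at -0.51 (-1.04 to 0.01). Genes of class I presentation had a median of -0.08 over 16 measured genes, 1 of them, the peptidase gene Erap1, at least 1.5-fold higher (0.63) and 0 lower, with H2-D1 furthest below at -0.49.

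Genes of dendritic identity showed a few differences in both directions. Of 13 measured cDC1 genes 0 were higher and 1 lower, with a median log2 ratio of -0.01, and -0.32 over the same genes without subcluster 2. The lower gene was Ifi205, an interferon-inducible DNA-sensor family gene, at 144 CPM in knockout members and 236 CPM in control members, a log2 ratio of -0.71 (-0.91 to -0.51). Batf3 was at -0.36 (-0.56 to -0.16), and at -0.55 and -0.74 within subclusters 0 and 1. The nearest to 0 was Wdfy4, which cDC1 need for cross-presentation, at 0.00.

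Of 9 measured cDC2 genes, 3 were higher and 1 lower, against 5.41% and 3.39% of all genes, with a median of 0.42. Without subcluster 2, 6 of 9 measured genes were higher and 0 lower, against 9.22% and 3.01% of all genes, with a median of 0.78. These were not all the same 9 genes, and over the genes measured in all members the median was also 0.78. Cd209a, a C-type lectin gene, had 125 UMIs in knockout members and 65 in control members, a log2 ratio of 1.12 (0.68 to 1.58). It was carried by 35 knockout and 29 control cells, and a single knockout cell gave 25.6% of its UMIs. Cd300a was at 0.94 and S100a4 at 0.61. Ltb, the lymphotoxin beta gene, was the lower one at -0.92, and that direction rests on subcluster 2. Without those cells it stood at 2.37, but at only 3.76 CPM over both libraries, below the floor of a measured gene. The genes nearest 0 were Tmem176a at -0.01 and Klf4 at 0.04.

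The remaining dendritic lists had few genes past 1.5-fold while all members were used. Of 15 measured shared dendritic genes 2 were higher and 0 lower, with a median of 0.23. The higher ones were Ffar2, a short-chain fatty acid receptor gene, at 1.33 (0.74 to 1.94), and at 2.47 without subcluster 2, and Itgax, the CD11c gene, at 0.88 (0.41 to 1.36), while Naaa was at 0.50 and Cst3 at -0.26. Of 11 measured pDC genes 2 were higher, Cd300c at 1.32 and Tex2 at 0.65, with a median of 0.26. Without subcluster 2, 4 of 10 measured pDC genes were higher, against 9.22% of all genes, with a median of 0.50. Of 24 measured dendritic transcription factor genes 1 was higher, Relb at 1.02 (0.29 to 1.79) on 45 knockout and 25 control UMIs, 0 were lower, and Cbfa2t3 and Spi1 lay nearest 0. Of 5 measured maturation genes 1 was higher, Relb, and 1 lower, the adhesion molecule gene Icam1 at -0.84, and without subcluster 2, 0 of 4 were higher and 1 lower. Of 16 measured cytokine and chemokine receptor genes 1 was higher, Il3ra at 0.67, and Ifngr1 lay nearest 0 at 0.01, while without subcluster 2, 3 of 19 were higher and 1 lower. Of 11 measured pattern recognition genes, among them Tlr3 at -0.21 and Tlr12 at 0.52, Cd209a was the one past 1.5-fold.

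Selenoprotein mRNAs were much lower in knockout members. Of 13 measured genes, 7 were at least 1.5-fold lower and 1 higher, against 3.39% and 5.41% of all genes, and the median log2 ratio was -0.71. Gpx1, the cytosolic glutathione peroxidase (chromosome 9, 108338903 to 108340343), was at 227 CPM (207 to 247) in knockout members and 1343 CPM (1298 to 1390) in control members, 5.93-fold lower. Selenow and Selenoh, small redox selenoproteins, were at 24.1 and 23.2 CPM in knockout members, against 198 and 190 CPM in control members, 8.22-fold and 8.19-fold lower. Gpx4, which reduces lipid hydroperoxides in membranes (chromosome 10, 80047166 to 80056439), was at 74.5 CPM in knockout members and 231 CPM in control members, 3.1-fold lower.

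The others followed in steps. Selenop, a secreted selenium carrier, had a log2 ratio of -1.32, and Selenof and Selenot, of the endoplasmic reticulum, -0.73 and -0.71. Selenok, also of the endoplasmic reticulum, was at -0.39 and Msrb1, a methionine sulfoxide reductase, at -0.37, both with intervals below 0. Sephs2, which makes the selenium donor, was at -0.03, Selenos at 0.00 and Txnrd1, the cytosolic thioredoxin reductase and also an NRF2 target, at 0.23 (-0.16 to 0.61). Selenoi was the one above, with 67 knockout and 39 control UMIs and a log2 ratio of 0.96 (0.37 to 1.57). It encodes an enzyme of phosphatidylethanolamine synthesis.

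**Figure D3:**
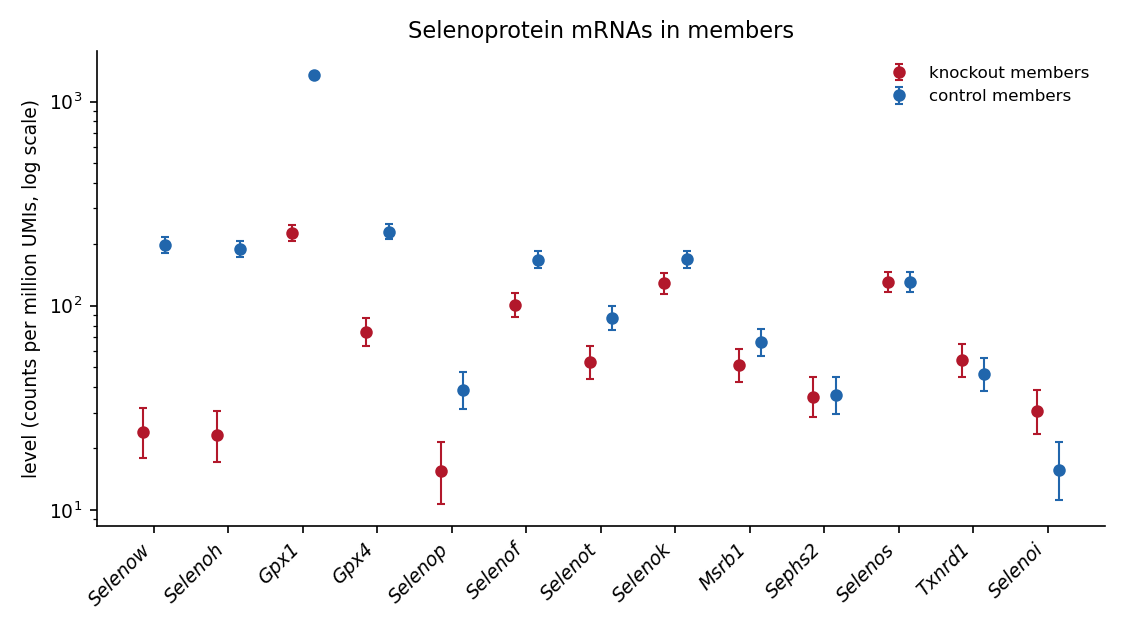
Level of the 13 measured selenoprotein mRNAs in members, in CPM on a log axis, with red points for knockout members, blue points for control members and bars for exact 95% Poisson intervals. Selenow, Selenoh and Gpx1 lie furthest apart, the intervals of Msrb1, Sephs2, Selenos and Txnrd1 overlap, and Selenoi is higher in knockout members (30.4 and 15.7 CPM).

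The pattern matched that of the other cells gene by gene. In the other kept barcodes Gpx1 had a log2 ratio of -2.58 against -2.57 in members, Gpx4 -1.66 against -1.63, and Selenof -0.73 against -0.73. The difference between the ratio in members and that in the other barcodes had an approximate 95% interval that included 0 for 12 of the 13 genes, and Selenoi was above, at 0.74 (0.17 to 1.31). Gpx1 was lower in each of the 5 subclusters. It was at 76.7 CPM in knockout and 765 CPM in control cells of subcluster 4, 9.98-fold lower, and at 230.4 and 1461 CPM in subcluster 2, 6.34-fold lower. The first rested on 14 knockout and 149 control UMIs, a log2 ratio of -3.32 (-4.22 to -2.53). The second rested on 96 and 1188 UMIs, a log2 ratio of -2.66 (-2.98 to -2.36). These intervals overlap, and the difference between the subclusters was not tested. In subcluster 0, where 6.55% of genes were at least 1.5-fold lower, 7 of 10 measured selenoproteins were, and in subcluster 1 also 7 of 10. Genes of selenocysteine synthesis and insertion had a median log2 ratio of -0.19 over 7 measured genes, with 0 past 1.5-fold in either direction.

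To ask whether some knockout members kept a control-like level, each cell was thinned to 3000 UMIs and its selenoprotein UMIs were summed over the list. The median was 3 UMIs in 145 knockout members and 8 in 185 control members, and 1 control cell was too shallow to use. At least 5 UMIs were found in 23 knockout members, 15.9% (10.3 to 22.8), and in 163 control members, 88.1% (82.6 to 92.4). The highest knockout member had 8 and the highest control member 19. Before thinning, 97.2% of knockout and 98.9% of control members had at least 5. The thinned distributions thus overlapped between 1 and 8 UMIs, and no knockout member exceeded the control median.

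**Figure D4:**
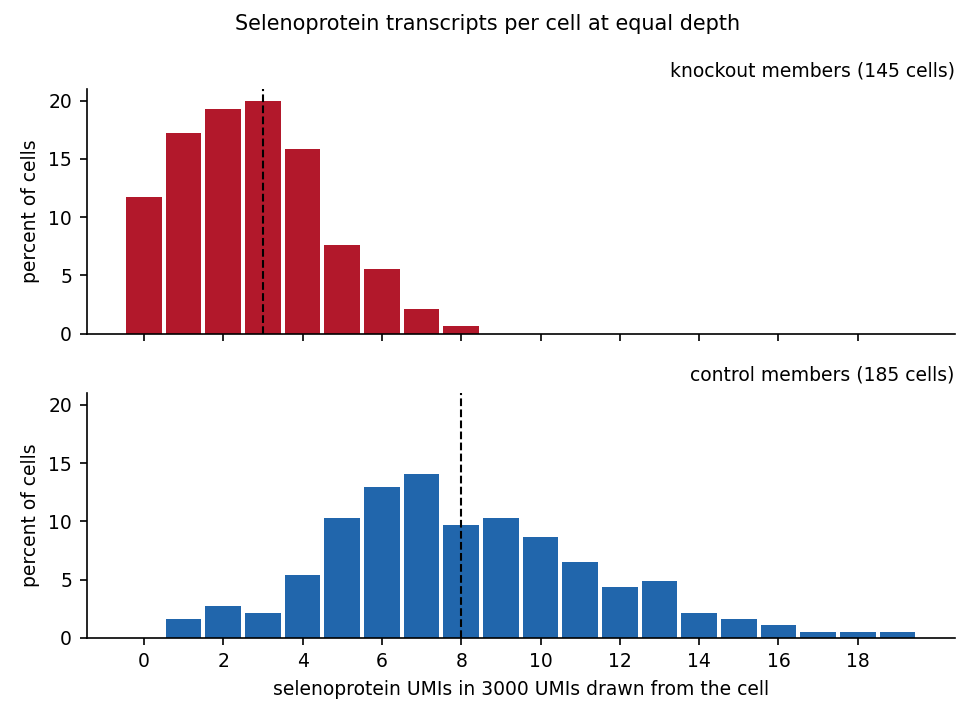
Percentage of member cells by the number of selenoprotein UMIs among 3000 UMIs drawn from each cell, with knockout members (red) above control members (blue) and dashed lines at the medians of 3 and 8. Knockout members end at 8 UMIs, where control members have their median.

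A few NRF2 target genes were higher in knockout members, and most were not past 1.5-fold. Among the 18 targets measured, 3 were 1.5-fold or more higher and 0 lower, against 5.41% and 3.39% of all genes, with a median log2 ratio of 0.39 and a range from -0.34 to 0.73. Without subcluster 2, 5 of 15 were higher and 0 lower, against 9.22% and 3.01% of all genes. The 3 were Sqstm1, an autophagy adaptor gene, at 0.73 (0.34 to 1.12), Blvrb, a biliverdin reductase gene, at 0.73 (0.05 to 1.43), and Ftl1, the ferritin light chain gene, at 833 CPM in knockout members and 532 CPM in control members, a log2 ratio of 0.65 (0.54 to 0.75). Among targets below the floor, Pir had 36 UMIs in 27 knockout members and 0 in control members. With 3 UMIs put in place of 0 over the control members it was 13.6-fold higher, which is not a lower limit. Nqo1, a quinone reductase gene, had 7 knockout and 0 control UMIs, Slc7a11, the cystine transporter gene, 5 and 1, and Hmox1, the heme oxygenase gene, 12 and 2.

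The NRF2 targets differed from the rest of the marrow more than the selenoproteins did. Gclm, the regulatory subunit of glutathione synthesis (chromosome 3, 122245557 to 122270732), had 103 UMIs in knockout members and 110 in control members, a log2 ratio of 0.08 (-0.32 to 0.48). In the other kept barcodes its log2 ratio was 1.41, and the difference, members minus others, was -1.33 (-1.72 to -0.94). For Ftl1 the ratio was 0.65 in members and 1.27 in the others, a difference of -0.62 (-0.72 to -0.52). Over the 18 measured targets, the interval of this difference lay below 0 for 8, among them G6pdx and Pgd of the pentose phosphate pathway. It included 0 for 9 and lay above 0 for 1, Txn1. In other lists it lay below 0 for 9 of 27 oxidative phosphorylation genes (above for 0). It lay below 0 for 7 of 19 antioxidant genes without selenium (above for 2), and included 0 for all 7 NADPH oxidase genes. The share over all measured genes is not given, so the count alone does not set the NRF2 targets apart.

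The same held against cells closer in lineage. Kept barcodes outside the members with at least 5 Irf8 and 2 Flt3 UMIs numbered 837 in the knockout library and 879 in the control library. They had a log2 ratio of 1.56 for Gclm and 1.38 for Ftl1. The interval of the difference lay below 0 for 9 of the 18 targets, and for 12 of 27 oxidative phosphorylation genes. It lay above 0 for 1 and 0 of these. Over the 18 genes the medians were 0.39 in members, 0.52 in the Irf8 and Flt3 barcodes and 0.46 in the other kept barcodes. Of the 18, 8 were at least 1.5-fold higher in the Irf8 and Flt3 barcodes, where 1.14% of 6114 genes were, and 5 in the other kept barcodes. Members are also shallower and fewer, and those comparison sets have smaller counting errors. Without subcluster 2 the median in members was 0.52, no lower than in the Irf8 and Flt3 barcodes. Gclm was then at 0.27, Ftl1 at 0.57 and Gsr, glutathione reductase, at 1.20, against 0.49 with subcluster 2. Intervals of the differences are not given without subcluster 2.

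The targets were also read within the 2 largest subclusters. In subcluster 1, the division-gene cells, 8 of 14 measured NRF2 targets were at least 1.5-fold higher in knockout cells, where 10.7% of 4174 measured genes were, with a median of 0.61 and Ftl1 at 0.91 (0.70 to 1.12). In subcluster 0, 0 of 10 were higher, where 7.74% of 3009 genes were, with a median of 0.15 and Ftl1 at 0.06 (-0.18 to 0.29). Ftl1 was at 0.96 (0.76 to 1.15) in subcluster 2, 0.65 (0.34 to 0.97) in subcluster 3 and 0.37 (0.01 to 0.72) in subcluster 4. Subclusters 2, 3 and 4 had only 22, 16 and 14 knockout cells. The differences between the subclusters were not tested. Within subcluster 1 the knockout cells also stood elsewhere in the cycle, with 11 of 20 measured S phase genes at least 1.5-fold higher and 8 of 24 G2 and M genes at least 1.5-fold lower, where 6.32% of all genes were lower, and what part this had in the NRF2 targets was not tested.

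**Figure D5:**
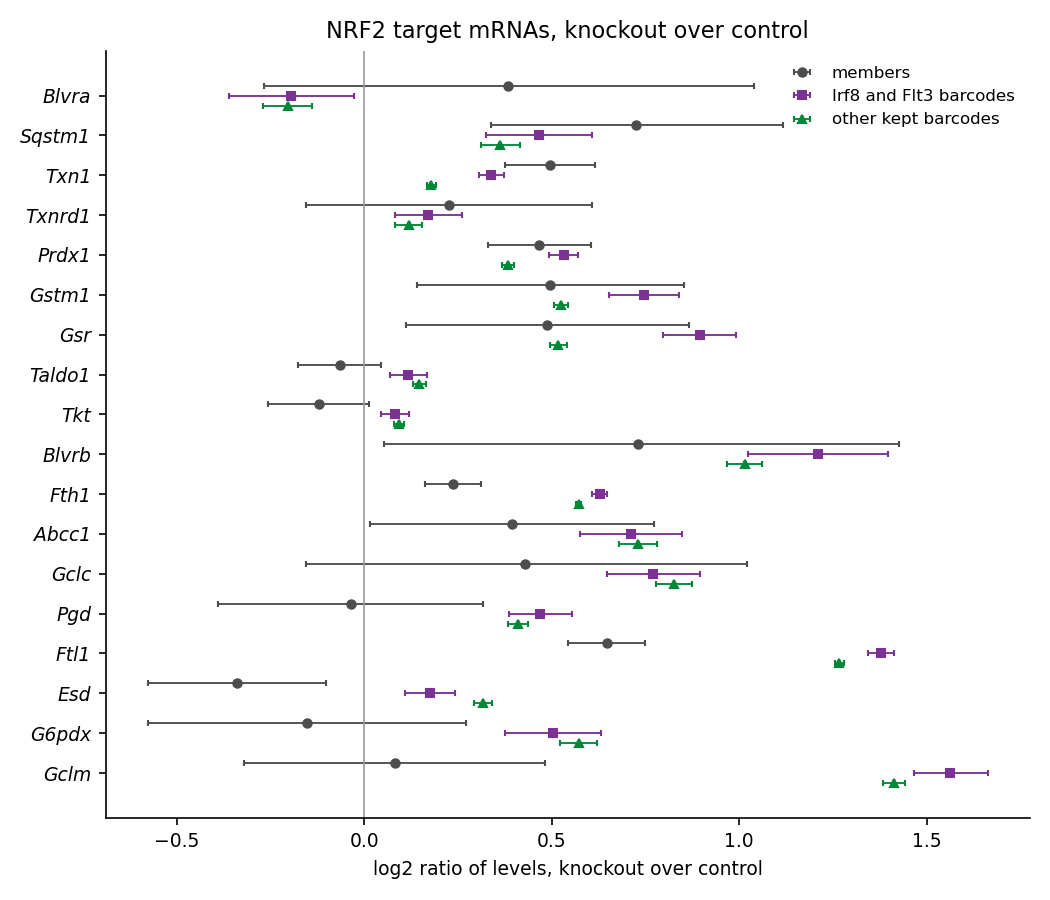
Log2 ratio of levels, knockout over control, of the 18 measured NRF2 targets in members (grey circles), in Irf8 and Flt3 barcodes outside the members (purple squares) and in the other kept barcodes (green triangles), with 95% counting intervals. Gclm, at the foot, is near 0 in members and at 1.41 in the other kept barcodes, and Ftl1 is at 0.65 in members and 1.27 in the others.

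Of 19 measured antioxidant genes without selenium, 1 was at least 1.5-fold higher and 3 lower, with a median of -0.13. Without subcluster 2, 3 of 18 were higher and 1 lower, against 9.22% and 3.01% of all genes, with a median of -0.08. Sod1, the cytosolic superoxide dismutase gene, was the higher one, with 975 UMIs in knockout members and 673 in control members, a log2 ratio of 0.71 (0.57 to 0.85), and was at 0.52 in the other barcodes. The lower ones were Msra, a methionine sulfoxide reductase gene, at -0.92, the mitochondrial peroxiredoxin gene Prdx3 at -0.64 and the mitochondrial glutaredoxin gene Glrx5 at -0.60. Of 9 NRF2 regulators, Bach2, a repressor at the same sites, was past 1.5-fold at 0.70 (0.24 to 1.16), 3 of 9 were higher without subcluster 2, and Nfe2l1 was nearest 0 at 0.02. The 7 measured NADPH oxidase genes lay between -0.08 and 0.12.

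Other groups had at most 2 genes past 1.5-fold in either direction while all members were used. Among all genes, 5.41% were higher and 3.39% lower, and 9.22% and 3.01% without subcluster 2. Of 21 measured lysosomal genes 2 were higher, Tfeb, a regulator of lysosome genes, at 0.82 and Lamp2 at 0.59, and 2 lower, Ctse, the cathepsin E gene, at -2.81 and Cd63 at -0.70. Cd63 stood at 0.30 without subcluster 2. Type I interferon genes had a median of 0.14 over 10 measured genes, with Ifi27l2a the one past 1.5-fold at -1.09 (-1.53 to -0.66). The 13 mitochondrially encoded transcripts lay between -0.30 and 0.57, with 2 past 1.5-fold, both higher, without subcluster 2, and 27 nuclear genes of oxidative phosphorylation had a median of -0.22 with 1 lower and 0 higher. Of 15 glycolytic genes 2 were higher, Eno1 at 2.03 and Aldoa at 0.82, with a median of 0.17, and 4 of 14 without subcluster 2. Of 9 measured iron and ferroptosis genes 1 was higher, Ftl1.

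The 15 genes with the highest ratios included some with high ratios in the other kept barcodes too. Hist1h2ap had 915 UMIs in knockout members and 97 in control members, a log2 ratio of 3.41, and was at 3.04 in the other kept barcodes. Gm10076 was at 2.60 against 2.49 there, Eno1 at 2.03 against 1.67, and the histone genes Hist1h2ae and Hist1h2bj at 2.14 and 1.69 against 1.64 and 0.80. The difference, members minus others, had an interval above 0 for Hist1h2ap, Hist1h2ae and Hist1h2bj, at 0.38, 0.49 and 0.89, and one that included 0 for Gm10076 and Eno1.

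Other genes of the 15 had lower ratios elsewhere. Hpgd, which encodes the prostaglandin-inactivating dehydrogenase, had 96 UMIs in 43 knockout members and 15 in 10 control members, a log2 ratio of 2.85 (2.06 to 3.75), 1.57 (0.50 to 2.64) above the other barcodes. Tbxas1, thromboxane synthase, had 208 knockout and 58 control UMIs, a log2 ratio of 2.02 (1.59 to 2.46), 1.19 (0.77 to 1.62) above the others. Tnfaip2 was at 2.25, 1.41 (0.91 to 1.90) above the others, Itga1, an integrin chain gene, at 2.57, and Sult1a1, a sulfotransferase gene, at 1.52 against 0.05 elsewhere. Gm42047 was at 2.50, Hip1 at 2.27, Sh3pxd2b at 1.97 and Mgst2, a microsomal glutathione transferase gene, at 1.92.

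Of these genes, Tbxas1, Hpgd, Tnfaip2 and Itga1 are given within subclusters 0 and 1. Those cells are among the members in which the genes were picked, so a shared direction is no separate evidence. Tbxas1 was at 1.64 in subcluster 0 and 2.57 in subcluster 1, Hpgd at 2.56 and 2.14, and Tnfaip2 at 2.25 and 2.94, all with intervals above 0. Itga1 was at 0.94 (-0.37 to 2.28) in subcluster 0, an interval that includes 0, and 4.13 (2.21 to 7.21) in subcluster 1. In subcluster 4 Tnfaip2 had 5 knockout and 8 control UMIs, a log2 ratio of -0.59 (-2.54 to 1.21). Ccl5, a chemokine gene and the other of the 15, had a log2 ratio of 3.41 that rested on 1 knockout cell with 45 of its 47 UMIs. Without subcluster 2 it had 1 knockout and 2 control UMIs, a log2 ratio of -1.09 (-6.97 to 3.17), which gives no direction.

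The 15 genes with the lowest ratios held 4 selenoproteins, Selenow, Selenoh, Gpx1 and Gpx4. Ctse had 10 UMIs in knockout members and 79 in 61 control members, a log2 ratio of -2.81 (-3.92 to -1.85), and was at -3.09 in the other barcodes. The inducible heat shock protein genes Hspa1a and Hspa1b had 23 and 44 knockout UMIs, against 185 and 193 control UMIs, log2 ratios of -2.83 and -1.96. In the other barcodes they were at -1.34 and -0.46, and the differences, members minus others, were -1.49 (-2.12 to -0.86) and -1.5 (-1.98 to -1.02). Cxcl9, the interferon-gamma-induced chemokine gene, had 7 knockout and 54 control UMIs (-2.77), but 4 control cells held all of its control UMIs and 1 of them held 36.

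The remaining 7 of the lowest were markers of other cells or rested on subcluster 2. S100a8 and S100a9, of neutrophils, had 92 and 10 UMIs in knockout members, against 343 and 106 in control members, and 1 control cell held 93.0% and 1 held 88.7% of those control UMIs. The basophil and mast cell genes Prss34, Mcpt8 and Cpa3 had 7, 13 and 5 knockout UMIs, against 55, 83 and 51 control UMIs, with 45 of the Prss34 and 57 of the Mcpt8 UMIs in 1 control cell. Without subcluster 2, S100a8 was at 0.39 on 14 knockout and 10 control UMIs, and Prss34 at 0.23 on 5 and 4. Mcpt8 was at -0.09 on 8 and 8, S100a9 at -0.94 on 5 and 9, and Cpa3 at -1.09 on 3 and 6. All of these intervals included 0. Sdc4, a syndecan gene, had 3 knockout and 56 control UMIs, and 0 in either library outside subcluster 2. Klf9 had 14 knockout and 56 control UMIs, and 2 and 6 without subcluster 2.

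Some lists of markers of other cells also stood lower in knockout members, and less so without subcluster 2. Of 7 measured neutrophil progenitor genes 6 were at least 1.5-fold lower in knockout members and 0 higher, with a median log2 ratio of -0.83, which was -0.20 over the same genes without subcluster 2. All 4 measured basophil, mast cell and eosinophil genes were lower, at a median of -2.65. Over the same genes it became -0.02 without subcluster 2, where 0 of the list were measured. Cpa3, Prss34 and Mcpt8 reached 20 CPM only in the control library, at 2.27, 3.18 and 5.91 CPM in knockout members. A gene measured in that way can only be lower, so the count does not show a shift of the list. Without subcluster 2 the neutrophil progenitor list summed to 371 CPM in knockout members and 454 CPM in control members, and the basophil, mast cell and eosinophil list to 28.6 and 37.0 CPM. Of 8 measured monocyte and macrophage genes 1 was lower, F13a1 at -1.26 and at -1.09 without subcluster 2, and 1 higher, Hpgd, which is also among the genes described above. Of 6 measured stem and multipotent genes 1 was lower, Cd34 at -0.68, and the median was -0.02. Cd34 turned to 0.24 without barcodes of Scrublet score 0.3 or more, and was at -0.16 without subcluster 2. The 24 S phase genes had a median of 0.05 with 2 lower, Ung and Mcm7. Without subcluster 2 their median was 0.42, and 6 of 23 measured were higher and 0 lower, against 9.22% and 3.01% of all genes. Ung then stood at 0.18 and Mcm7 at -0.56. The 24 G2 and M genes had a median of 0.16 with 0 past 1.5-fold.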

How the data were processed

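Droplet single-cell 3′ mRNA libraries (10x v3.1) were read from the deposited gene-by-barcode matrices, which hold whole UMI counts that the authors had not normalized. The submitters' processing notes name Cell Ranger 6.1.2 and build mm10; the sources used here do not give the annotation release, cell calling or strand setting. The matrices held 32285 genes.

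Barcodes, members and measured genes were chosen by the limits given with the results. The members and gene lists were chosen with earlier results of these data known. UMIs were summed per library, scaled to CPM, and ratios were given exact binomial or Poisson intervals; intervals on differences of ratios are approximate, and no interval covers cell-to-cell or animal-to-animal variation. A ratio against 0 UMIs used 3 UMIs over the library. No test was made, with 1 library per genotype.

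Members of both libraries were clustered with scanpy 1.11.5 and leidenalg 0.10.2 (1500 variable genes, 20 components, 15 neighbours, resolution 0.5), with Python 3.11.15, numpy 2.4.6 and scipy 1.17.1. Leading genes of a subcluster were ranked at 30 CPM or more, with 5 CPM added to both sides of the ratio. Counts of genes past 1.5-fold within subclusters used the floor of 20 CPM and 50 UMIs. Ratios of single genes within subclusters were given without a floor. Doublets were scored with Scrublet but not removed. Scripts were tested on simulated counts. Genes named are the 30 that most set members apart at 100 CPM or more, the 15 highest and 15 lowest ratios whose interval excludes 1, all measured class II and selenoprotein genes, and list genes furthest from and nearest to 0. Other genes were named after their values were seen. Alternatives changed the barcode filter, class II limit, doublets, floor, scaling and clustering resolution.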

Additional observations from a re-analysis of the deposited data

Results flagged for a closer look

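In all, 3 genes were at least 1.5-fold apart in members and at least 1.5-fold apart the other way in the other kept barcodes; with 1 library per genotype the difference between the 2 sets of cells was not tested. Cd209a had a log2 ratio of 1.12 in members, against -1.90 in the other kept barcodes, where it had 11 knockout and 50 control UMIs. Cxcl9 was at -2.77 in members, against 2.74 elsewhere on 11 knockout and 2 control UMIs. Sdc4 was at -4.05 in members, against 1.21 elsewhere on 497 knockout and 262 control UMIs. Ccl5, at 3.41 in members mostly from 1 cell, was at -0.56 elsewhere, short of 1.5-fold.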

How the results depend on the processing

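No paired analysis was possible because each genotype had 1 library. Over 15 settings, 2067 of 2214 alternative values stayed close to the reported ones, 134 moved and 13 reversed; the cause was not tested. The log2 ratio of member shares was 0.42 under 5% mitochondrial UMIs. Genes higher in knockout members numbered 30 and lower 33 at a floor of 100 CPM, and 1195 and 867 with no floor except 10 UMIs. Settings chosen after seeing the data left out subcluster 2 or barcodes found in both libraries. Without subcluster 2, 555 genes were higher, and the log2 ratio was -1.09 for Ccl5, 2.37 for Ltb, 0.37 for Nkg7, 0.060 for Prg2, 0.23 for Prss34, 0.39 for S100a8 and 0.18 for Ung. Of these, Ccl5 rested on 1 knockout and 2 control UMIs, Prss34 on 5 and 4, and S100a8 on 14 and 10. Ltb was at 3.76 CPM over both libraries. Such counts are too few for a firm direction. Without barcodes of Scrublet score 0.3 or more the log2 ratio was 0.24 for Cd34, 0.042 for Prg2, 0.59 for S100a8 and 0.10 for Ung. At a class II share of 0.5% or more the neutrophil progenitor median was 0.091 and S100a8 was at 2.11. Median-of-ratios scaling gave 283 genes higher and 250 lower. At this depth genes under the floor, such as Nqo1 and Slc7a11, have too few UMIs for a firm ratio, and counting intervals are too narrow where 1 cell holds most UMIs.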
